A study of Homo sapiens with 6 samples.

Results

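The genes described here are 43 genes of glucose breakdown and of the cellular response to low oxygen, chosen by name: 28 encode enzymes of glycolysis, of pyruvate entry into mitochondria and of the pentose phosphate pathway, and 15 encode oxygen sensors, hypoxia-inducible factor (HIF) subunits and HIF targets. Of these, 42 were listed in the deposited RNA-seq table, among 11848 gene names in all, with 157 of its 29091 transcripts; ADM (adrenomedullin, a HIF target) was not analysed here. To ask which mRNAs depend on the long non-coding RNA PCAT1, the study compared 3 samples that received a PCAT1 shRNA (shPCAT1) with 3 samples that received a scramble shRNA (shSCR). All 6 samples were LNCaP-AI, an androgen-independent line selected from human LNCaP prostate cancer cells by prolonged androgen deprivation in charcoal-stripped serum. The study's methods give 1 shRNA target sequence for PCAT1. PCAT1 was not analysed here, and how far it was lowered in these 6 samples was not checked here. The study itself measured PCAT1 by RT-PCR in LNCaP-AI cells with the PCAT1 shRNA. Whether the replicates were separate cultures is not stated in the labels, so the spread that p-values measure may be technical.

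Glycolysis splits glucose into pyruvate, which is either reduced to lactate or oxidised in mitochondria, and the pentose phosphate pathway draws off glucose phosphate to make NADPH and ribose. When oxygen is low, the prolyl hydroxylases no longer mark HIF1A for VHL, HIF1A accumulates as protein, pairs with ARNT and raises transcription of most glycolytic genes and of genes such as VEGFA and BNIP3. Oxygen controls HIF1A mainly as a protein, and mRNA levels of HIF1A are therefore no measure of HIF activity.

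Values are FPKM (fragments scaled by transcript length and by mapped reads), summed over the listed transcripts of a gene. The sequencing depth is unknown, and the listed FPKM of a sample summed to between 263353 and 303477. One library, shSCR replicate 3, stood apart: its Pearson correlation with the other libraries was 0.809 to 0.845, against 0.910 to 0.946 among the other 5 (across 10825 genes, not independent of each other). Its deviation from shSCR replicates 1 and 2 followed the GC content of the genes (Spearman rho = 0.588 across genes). Calls and medians are therefore given with and without it. The 9 prostate luminal markers looked up, among them KLK3 and FOLH1, were all listed, with sums of 1643 to 2084 FPKM in shSCR and 1327 to 1498 FPKM in shPCAT1. Of 13 markers of basal, stromal, blood and endothelial cells 5 were listed, with sums of 14 to 30.4 FPKM in shSCR and 8.52 to 21.6 FPKM in shPCAT1, most of it from CD68 and COL1A1; their part in the results was not tested.

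Across the whole group, 2 of the 42 measured genes changed, and both were lower in shPCAT1: the aldolase gene ALDOA and the HIF partner gene ARNT2. The test was limma on log2(FPKM + 1) over the 10825 genes whose mean reached 1 FPKM, a call being a Benjamini-Hochberg adjusted p of at most 0.05, and 0.878% of all genes were called (0.545% lower and 0.333% higher). All 42 measured genes passed that filter, but ARNT2 reached it, and the mean of 0.5 FPKM in 1 group needed for a listing, only through shSCR (mean 3.10 FPKM against 0.186 FPKM in shPCAT1), so it could be tested only because it was high in that group. At an unadjusted p of at most 0.05 there were 9, of which 8 were lower and 1 higher, where 10.0% and 7.23% of all genes passed in those directions. The fitted change was below 0 for 33 of the 42 genes and for 54.2% of all genes. The median log2 change was -0.24 over the 28 enzyme genes and -0.20 over the 14 hypoxia genes, beside -0.05 over all genes tested. Without shSCR replicate 3 these medians were -0.15 and -0.25, beside -0.01, and 5 of the 42 were called, all lower (ALDOA, ALDOC, TKT, ARNT2 and BNIP3), where 8.03% of all genes were called and 4.4% were called lower. The groups did not overlap for 13 of the 42 genes, 11 lower and 2 higher in shPCAT1, where 17.7% and 14.8% of all genes were separated in those directions. Without shSCR replicate 3 the numbers were 15 lower and 5 higher, where 25.6% and 23.1% of all genes were separated. The fitted change turned its sign without that library for 7 of the 42 genes (HK2, PGAM1, PFKFB2, PGLS, ARNT, VHL and ANKRD37), of which 0 were called in either fit. In bulk RNA, less RNA per cell and fewer cells of a type cannot be told apart.

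**Figure D1:**
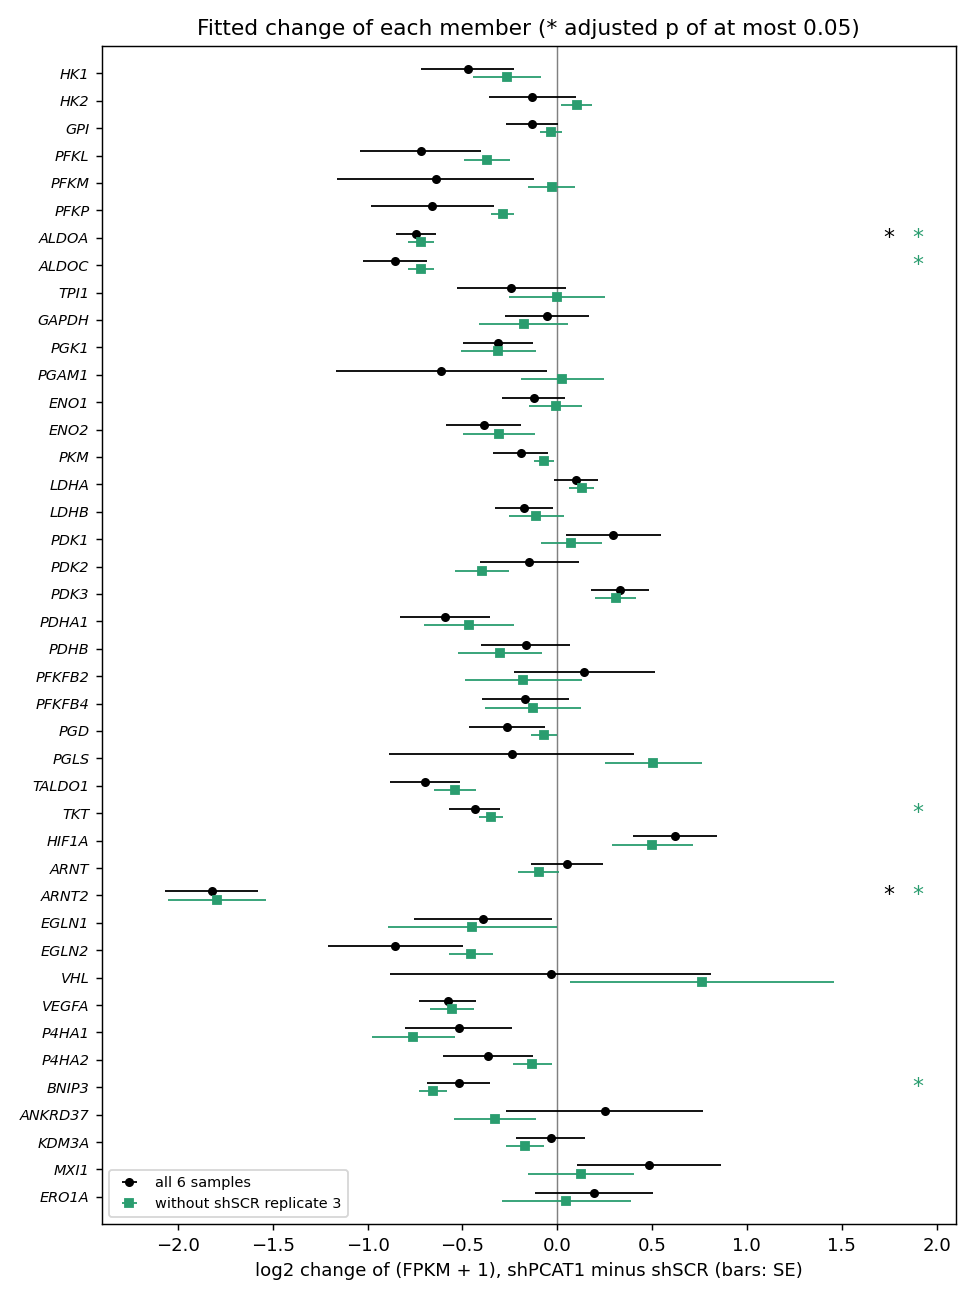
Fitted difference of each of the 42 genes between shPCAT1 and shSCR on the log2(FPKM + 1) scale (x axis, points with SE), from all 6 samples (black, n = 3 per group) and without shSCR replicate 3 (green, n = 2 shSCR), with an asterisk for an adjusted p of at most 0.05. Most points lie to the left of 0, ARNT2 lies farthest at -1.82, and 2 genes carry a black asterisk against 5 with a green one.

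Among the 9 genes of upper glycolysis, from glucose to the triose phosphates, 1 was called lower (ALDOA), 0 were called higher, and all 9 fitted changes were below 0 (median -0.64). Without shSCR replicate 3 the median was -0.27, 8 of the 9 were below 0 and HK2 was at 0.10, and with each sample also corrected for GC content 5 of the 9 were below 0. ALDOA, which encodes the main aldolase of most tissues and lies at chr16:30077093-30081673 (GRCh37), was at 575, 590 and 613 FPKM in shSCR replicates 1 to 3 and at 335, 376 and 352 FPKM in shPCAT1 replicates 1 to 3. Every shPCAT1 sample was below every shSCR sample, and here shSCR replicate 3 was close to the other 2. The means were 593 ± 19.1 and 354 ± 20.7 FPKM (SD, n = 3 each), 1.67 times higher in shSCR, and the log2 change was -0.74 (SE 0.10, adjusted p = 0.045 in limma). ALDOA has a GC content of 60.5%. Its call did not survive the GC correction with all samples (log2 change -0.36, SE 0.20, adjusted p = 0.424 in limma). It did survive the same correction when shSCR replicate 3 was left out (-0.57, SE 0.06, adjusted p = 0.0239 in limma).

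ALDOC, the aldolase best known from brain, did not pass the test with all samples. It lies on the minus strand at chr17:26900133-26904282 and was at 65.6, 63.2 and 86.0 FPKM in shSCR against 39.2, 36.9 and 40.2 FPKM in shPCAT1, again with no overlap, but with shSCR replicate 3 the highest. The log2 change was -0.86 (SE 0.17, limma adjusted p = 0.090) with all samples and -0.72 (SE 0.07, adjusted p = 0.0175) without that library. Both highest ALDOC transcripts were lower, ALDOC-001 with 32.5, 37.3 and 51.7 against 23.4, 19.3 and 23.0 FPKM and ALDOC-003 with 28.8, 22.6 and 32.8 against 15.2, 14.8 and 16.4 FPKM. The ratio of ALDOC to ALDOA within a sample was 0.120 ± 0.0176 in shSCR and 0.110 ± 0.0102 in shPCAT1 (exact permutation p = 0.6, two-sided, n = 3 each).

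The other 7 genes of this stretch did not pass the test, and for them, as for ALDOA and ALDOC, shSCR replicate 3 was the highest of the 6 samples, as it was for 40.5% of all genes. The phosphofructokinase subunits, which carry the committed step, show how much: PFKM was at 21.8 and 24.9 FPKM in shSCR replicates 1 and 2, at 85.8 FPKM in replicate 3, and at 20.7 to 25.6 FPKM in shPCAT1. PFKP was at 78.0, 80.2 and 172 FPKM against 62.0 to 66.6 FPKM, and PFKL at 36.0, 46.1 and 85.3 FPKM against 31.0 to 31.6 FPKM. Neither PFKL nor PFKP overlapped between the groups, with or without that library (adjusted p without it 0.142 and 0.066 in limma). The hexokinases, which trap glucose in the cell, were at 41.2 to 72.5 against 32.8 to 43.3 FPKM for HK1 and at 14 to 23.5 against 14.6 to 16.3 FPKM for HK2. The isomerase genes GPI (172 to 214 against 162 to 177 FPKM) and TPI1 (224 to 453 against 229 to 334 FPKM) overlapped between the groups.

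**Figure D2:**
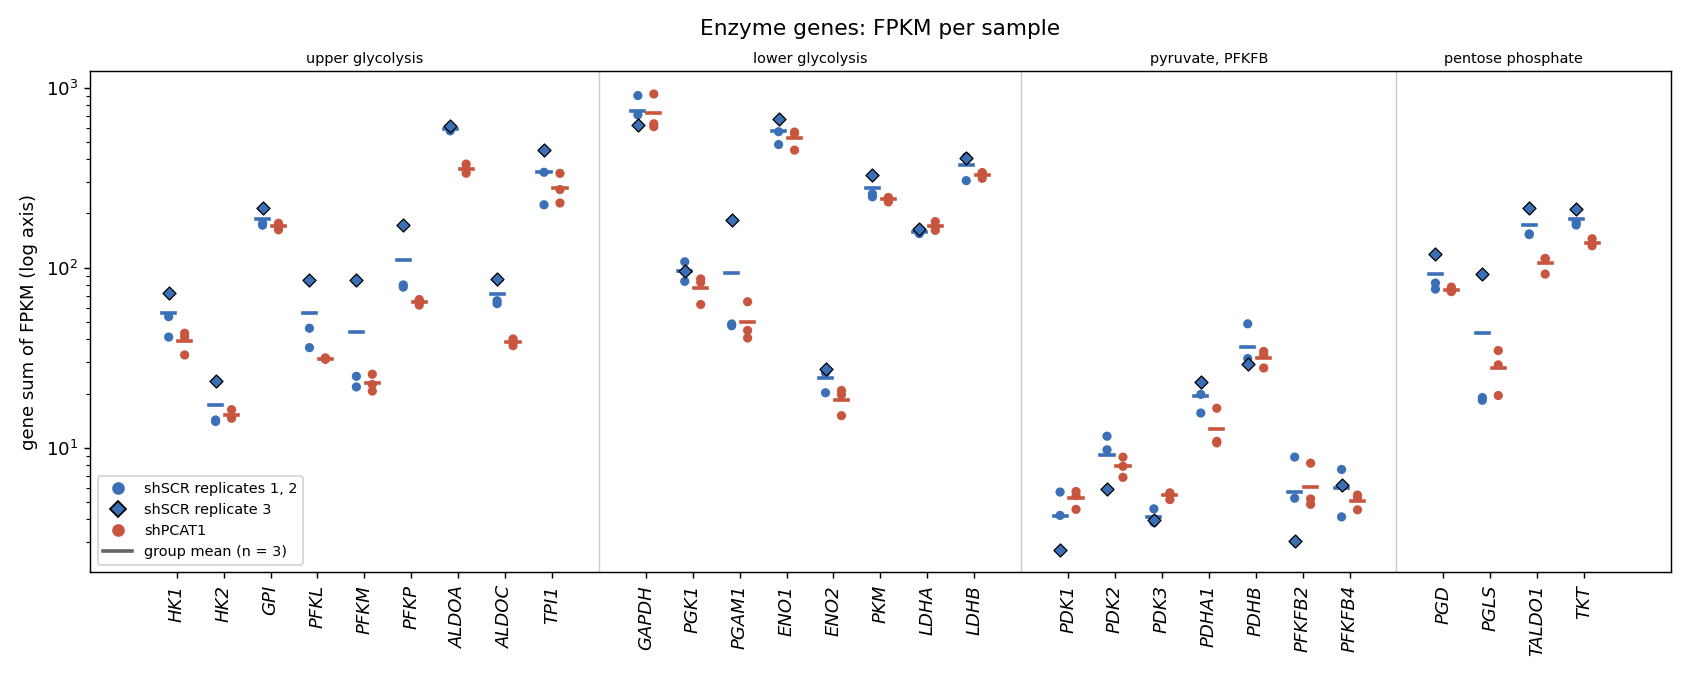
FPKM of the 28 enzyme genes in each sample (log axis), with shSCR in blue, its replicate 3 as outlined diamonds, shPCAT1 in red and bars for the group means (n = 3). The aldolase genes ALDOA and ALDOC and the pentose phosphate genes TALDO1 and TKT have no overlap between blue and red, whereas for PFKM, PGAM1 and PGLS the blue mean is carried by the diamond.

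None of the 8 genes of lower glycolysis, from the triose phosphates to lactate, was called by limma (0 at an unadjusted p of at most 0.05 and 0 by an ordinary equal-variance test). The 2 with the smallest p were PGK1 and ENO2. PGK1, the first ATP-forming enzyme of the pathway, at chrX:77359671-77384793, was at 108, 84.0 and 95.9 FPKM in shSCR and at 62.5, 86.6 and 82.9 FPKM in shPCAT1 (log2 change -0.31, SE 0.18, limma adjusted p = 0.425). ENO2, the neuronal enolase and a marker of neuroendocrine cells, at chr12:7023614-7032859, was at 26.1, 20.2 and 27.3 FPKM against 20.8, 15.1 and 19.7 FPKM (-0.39, SE 0.20, adjusted p = 0.366). In both genes 1 sample bridged the groups. The 2 most abundant genes of the set were here, GAPDH at 618 to 904 FPKM in shSCR and 607 to 922 FPKM in shPCAT1 and ENO1 at 483 to 665 against 450 to 566 FPKM. LDHB was at 304 to 412 against 314 to 338 FPKM. LDHA, the lactate dehydrogenase that favours lactate formation, was at 155 to 165 against 161 to 180 FPKM, and its log2 change of 0.10 (SE 0.12) was the only one above 0 among the 8 with all samples. PGAM1 was at 47.6, 48.7 and 185 FPKM in shSCR against 40.7 to 64.7 FPKM in shPCAT1; its near-identical copy PGAM4 was also highest in shSCR replicate 3, at 28.5 FPKM against 5.78 to 7.89 FPKM elsewhere, and reads of the copies may have been split between them. The ratio of LDHB to LDHA was 1.95, 2.67 and 2.46 in shSCR and 1.74, 2.0 and 2.08 in shPCAT1 (exact permutation p = 0.3, two-sided; the smallest p of 3 against 3 is 0.1).

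PKM, the pyruvate kinase gene, makes 2 forms from a pair of mutually exclusive exons, and tumour cells mainly make M2. The exons lie at chr15:72495363-72495529 (M1) and chr15:72494795-72494961 (M2) on the minus strand of GRCh37, are both 167 bases long and differ at 62 positions. They are shown because the listed PKM transcripts were assigned to a form by which of them they hold; capitals mark the bases that differ between the exons.
PKM M1 exon: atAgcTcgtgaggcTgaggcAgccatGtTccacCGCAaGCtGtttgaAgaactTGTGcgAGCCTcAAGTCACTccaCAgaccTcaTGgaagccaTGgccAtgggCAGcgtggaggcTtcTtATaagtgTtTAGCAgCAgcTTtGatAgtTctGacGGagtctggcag
PKM M2 exon: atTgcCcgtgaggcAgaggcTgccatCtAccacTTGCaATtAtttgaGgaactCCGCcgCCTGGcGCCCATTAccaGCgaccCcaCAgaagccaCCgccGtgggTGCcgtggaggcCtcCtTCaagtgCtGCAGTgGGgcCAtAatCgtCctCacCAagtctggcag
Transcripts with the M2 exon held 98.2%, 98.2% and 95.5% of the PKM FPKM in shSCR and 98.1%, 98.5% and 97.4% in shPCAT1. Those with the M1 exon held 1.39% to 4.49%, and the highest share was that of shSCR replicate 3. Thus the M2 form dominated every sample, and the shares overlapped between the groups. The gene sum of PKM was 247, 257 and 326 FPKM in shSCR and 232, 244 and 246 FPKM in shPCAT1, with no overlap but a narrow gap (log2 change -0.19, SE 0.14, limma adjusted p = 0.507), and with the GC correction the change turned to 0.10.

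Single transcripts of the abundant genes were far less stable than their sums. No transcript of the 42 genes was called among 124 tested (limma over 20474 transcripts, of which 0.0977% were called; 11 of the 124 had an unadjusted p of at most 0.05, and the smallest adjusted p was 0.185). Some values, picked after they were seen, show the scatter. GAPDH-004 was listed at 403 FPKM in shSCR replicate 1 and 307 FPKM in shPCAT1 replicate 3 and at 0 in the other 4 samples, and those were the 2 samples with the highest GAPDH sum. The study's PCR methods name GAPDH and β-actin as internal controls. The GAPDH sum overlapped between the groups (log2 change -0.05, adjusted p = 0.914 in limma). LDHA-001 was at 150 FPKM in shSCR replicate 3 and at 7.71 to 11.0 FPKM in the others, while LDHA-010 was at 1.57 FPKM there and at 35.3 to 58.3 FPKM elsewhere, so that the sums stayed level. Within ALDOA, the 2 highest transcripts, ALDOA-010 and ALDOA-011, were at 171 to 194 against 152 to 163 FPKM and at 134 to 147 against 101 to 102 FPKM. ALDOA-030 was at 63.5, 67.1 and 7.45 FPKM in shSCR and at 0.899, 5.91 and 1.28 FPKM in shPCAT1. ALDOA-006 was at 62.3, 110 and 0.0103 FPKM in shSCR and at 17.5, 47.4 and 50.3 FPKM in shPCAT1. The 2 highest transcripts thus held only part of the fall in the ALDOA sum. The rest lay in lower transcripts, some of which scattered between samples.

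**Figure D3:**
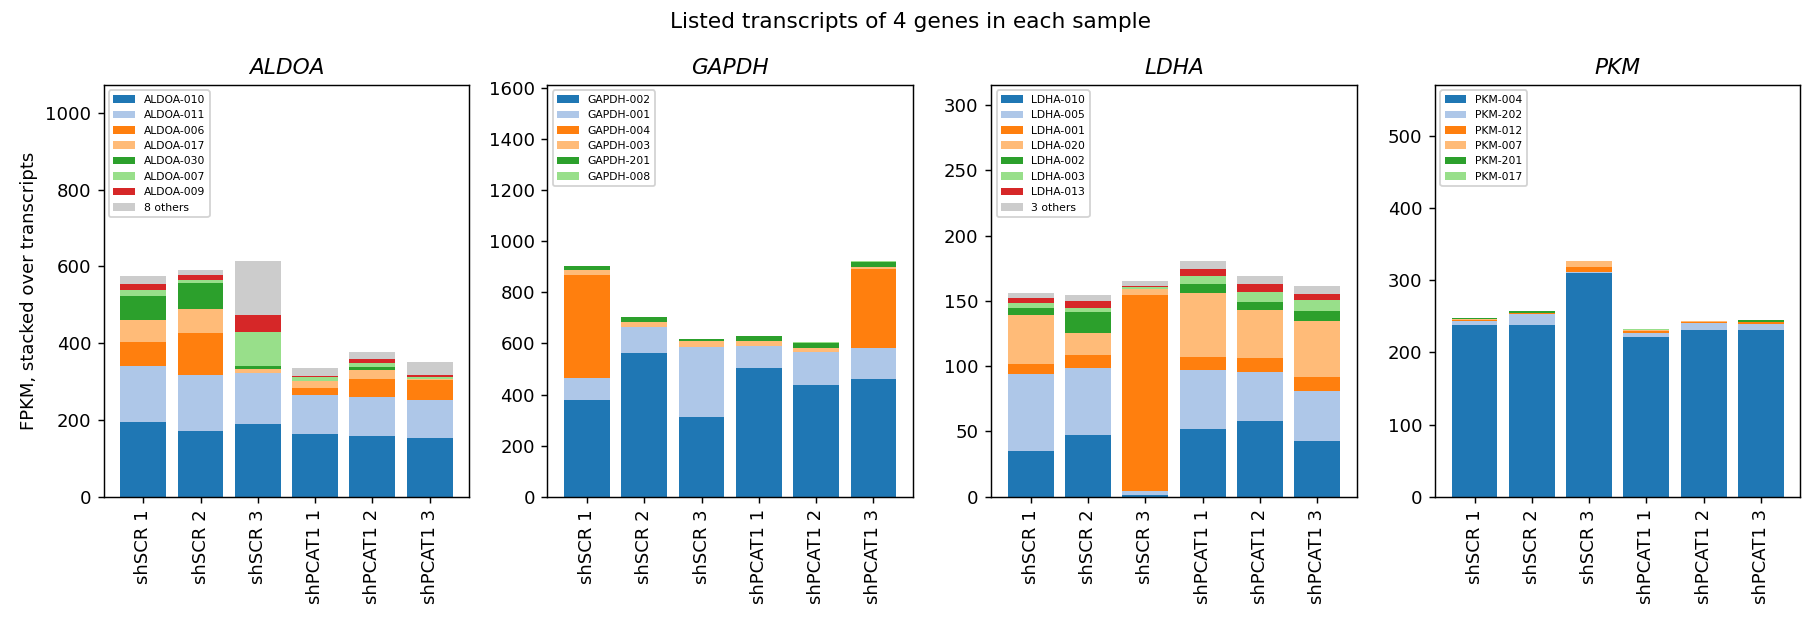
FPKM of the listed transcripts of ALDOA, GAPDH, LDHA and PKM, stacked in each of the 6 samples, with the 7 highest transcripts coloured and the rest in grey. The stacks of ALDOA are lower in all 3 shPCAT1 samples, GAPDH-004 appears in 2 samples and LDHA-001 fills most of the stack in shSCR replicate 3.

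Summed over the 17 enzymes from hexokinase to lactate dehydrogenase, glycolytic mRNA was 3590, 3553 and 4293 FPKM in shSCR and 2979, 3080 and 3371 FPKM in shPCAT1. As a share of all listed FPKM this was 1.34%, 1.31% and 1.41% against 1.13%, 1.17% and 1.28%. The shares did not overlap between the groups, with or without shSCR replicate 3, but this rested on ALDOA: without it, a sum chosen after the values were seen, they were 1.13%, 1.09% and 1.21% against 1.0%, 1.03% and 1.14% and overlapped.

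Of the 7 genes that control pyruvate entry and fructose bisphosphate, 0 were called by limma (1 at an unadjusted p of at most 0.05, 0 by an ordinary equal-variance test). PDHA1, the catalytic subunit of pyruvate dehydrogenase, at chrX:19362051-19379803, was at 19.8, 15.6 and 23.1 FPKM in shSCR and at 10.9, 10.6 and 16.6 FPKM in shPCAT1, and only shPCAT1 replicate 3 reached the shSCR range (log2 change -0.59, SE 0.24, limma adjusted p = 0.284). PDK3, a kinase that switches pyruvate dehydrogenase off, at chrX:24483573-24557954, was at 3.85, 4.58 and 3.97 FPKM against 5.62, 5.54 and 5.16 FPKM. With all 6 samples, PDK3 alone among the 28 enzyme genes had every shPCAT1 sample above the shSCR samples (0.33, SE 0.15, adjusted p = 0.334 in limma). Without shSCR replicate 3, 4 of the 28 were so separated (HK2, LDHA, PDK3 and PGLS), where 23.1% of all genes were. In the other direction 8 of the 28 were separated, where 25.6% of all genes were. With all samples, the PDK3 relatives PDK1 (2.72 to 5.68 against 4.55 to 5.72 FPKM) and PDK2 (5.91 to 11.6 against 6.85 to 8.87 FPKM) overlapped, as did PDHB, the partner subunit of PDHA1 (29.2 to 48.8 against 27.7 to 34.3 FPKM). The ratio of PDK1 to PDHA1 was 0.213, 0.364 and 0.118 in shSCR and 0.419, 0.537 and 0.328 in shPCAT1 (exact permutation p = 0.2, two-sided). The bifunctional regulators PFKFB2 (3.02 to 8.88 against 4.85 to 8.22 FPKM) and PFKFB4 (4.13 to 7.58 against 4.52 to 5.46 FPKM) spread more within shSCR than between the groups.

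All 4 pentose phosphate genes had fitted changes below 0, and 0 were called by limma with all samples (2 at an unadjusted p of at most 0.05, 0 by an ordinary equal-variance test). TALDO1, the transaldolase of the non-oxidative branch, at chr11:747329-765024, was at 153, 154 and 213 FPKM in shSCR and at 92.2, 112 and 113 FPKM in shPCAT1. TKT, the transketolase that shares that branch, on the minus strand at chr3:53258723-53290047, was at 179, 173 and 211 FPKM against 132, 137 and 145 FPKM. Neither gene overlapped between the groups, and both were highest in shSCR replicate 3. For TALDO1 the log2 change was -0.70 (SE 0.19, limma adjusted p = 0.161), or -0.54 (SE 0.11, adjusted p = 0.0616) without that library. For TKT it was -0.44 (SE 0.13, adjusted p = 0.20), or -0.35 (SE 0.06, adjusted p = 0.0482) without it, and the latter call was lost with the GC correction (-0.21, adjusted p = 0.110). The highest transcripts followed: TALDO1-001 was at 129, 132 and 213 against 79.6, 99.2 and 101 FPKM, and TKT-001 at 145, 137 and 172 against 109, 115 and 120 FPKM. Of the oxidative branch, PGD (phosphogluconate dehydrogenase, which forms NADPH) was at 76.1 to 119 against 73.7 to 78.0 FPKM, and PGLS at 19.0, 18.4 and 92.1 against 19.5 to 34.7 FPKM, its mean resting on shSCR replicate 3. The change of PGLS, -0.24 with all samples, turned to 0.51 without that library, with every shPCAT1 sample then above the other shSCR samples, and to 0.28 with the GC correction (limma adjusted p = 0.291 and 0.739), so that 3 of the 4 genes were below 0 in either setting. The summed share of these 4 genes in all listed FPKM was 0.162%, 0.155% and 0.209% in shSCR and 0.126%, 0.130% and 0.138% in shPCAT1.

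The other genes of the same pathways were followed through lists chosen by function. Of 12 further pentose phosphate and ribose genes, 0 were called by limma (4 at an unadjusted p of at most 0.05, all lower, and 0 by the ordinary test). RBKS, the ribokinase, was at 2.45, 2.66 and 2.26 against 0.978, 0.954 and 0.411 FPKM (-0.97, adjusted p = 0.117 in limma). It reached the filter of 1 FPKM only through shSCR (mean 2.46 FPKM against 0.781 FPKM in shPCAT1), so its selection favoured a lower value. Of 16 further glycolytic and glucose transport genes 0 were called (4 at an unadjusted p of at most 0.05, of which 3 were lower; 1 higher by the ordinary test). The smallest p was that of LDHD, the mitochondrial lactate dehydrogenase for the D form, at 15.1, 13.9 and 23.5 against 7.36, 7.37 and 7.23 FPKM (-1.12, adjusted p = 0.0965, or -0.90 and 0.0159 without shSCR replicate 3). PCK2, which forms phosphoenolpyruvate in mitochondria, was at 99.9, 91.9 and 154 against 76.2, 72.3 and 75.3 FPKM (-0.58, adjusted p = 0.261). Of 9 further genes of pyruvate handling 0 were called (1 at an unadjusted p of at most 0.05, 0 by the ordinary test). Without shSCR replicate 3 the dihydrolipoamide dehydrogenase gene DLD, 1 of the 9, was called lower, where 4.4% of all genes were called lower. Its change was then -0.65 (adjusted p = 0.024 in limma, against -0.38 and 0.469 with all samples). The regulator of pyruvate dehydrogenase phosphatase PDPR was at 5.11, 5.68 and 4.60 against 2.33, 2.72 and 4.15 FPKM (-0.61, adjusted p = 0.246), and pyruvate carboxylase, PC, at 9.46, 10.3 and 20.9 against 7.06, 8.67 and 7.87 FPKM (-0.64, adjusted p = 0.354).

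Among the 6 hypoxia regulators 1 was called lower (ARNT2) and 0 higher. ARNT2, a relative of ARNT that can also partner HIF subunits and is best known from neurons, spans chr15:80696693-80890278 with 19 exons in its 1 listed transcript. It was at 3.10, 2.95 and 3.26 FPKM in shSCR and was listed at 0, 0.559 and 0 FPKM in shPCAT1. The shSCR values lay within a narrow band and every shPCAT1 sample was far below it. The log2 change on the log2(FPKM + 1) scale was -1.82 (SE 0.24, limma adjusted p = 0.042), and -1.79 (SE 0.26, adjusted p = 0.0311) without shSCR replicate 3. With the GC correction it was -1.64 (adjusted p = 0.0498). A listed 0 can be a failed estimate, the gene is low, and with a pseudocount of 0.1 the change was -4.09 with a limma adjusted p of 0.115. ARNT2 also passed the filter and was listed only through shSCR. That selection favoured a lower value in shPCAT1, so the tests of this gene add no independent support for the direction. ARNT, the usual partner of HIF1A, was at 9.45, 9.33 and 6.59 against 7.72, 9.31 and 9.18 FPKM (0.05, SE 0.19, adjusted p = 0.900, or -0.10 and 0.604 without shSCR replicate 3). ARNT mRNA exceeded that of ARNT2 per length in every sample. The ratio of ARNT2 to ARNT was 0.328, 0.316 and 0.495 in shSCR and 0, 0.060 and 0 in shPCAT1 (exact permutation p = 0.1, two-sided, the smallest possible).

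HIF1A, at chr14:62162258-62214976, was the only hypoxia gene with every shPCAT1 sample above the shSCR samples. It was at 22.5, 19.1 and 16.0 FPKM in shSCR and at 34.0, 23.0 and 33.9 FPKM in shPCAT1, the middle shPCAT1 sample lying just above the highest shSCR sample. The log2 change was 0.62 (SE 0.22, unadjusted p = 0.031, adjusted p = 0.248 in limma), and its GC content of 39.2% is among the lowest of the set. With the GC correction it was 0.34 (adjusted p = 0.417). HIF1A-001, the highest transcript, was at 13.0, 13.0 and 9.41 against 22.6, 14.7 and 24.8 FPKM, while HIF1A-003 overlapped (4.96 to 8.45 against 6.95 to 8.63 FPKM). EGLN1, the main oxygen sensing hydroxylase, was at 5.87 to 7.16 FPKM in shSCR and at 2.20, 6.46 and 6.50 FPKM in shPCAT1. EGLN2 was at 10.9, 9.60 and 24.7 against 6.39, 7.68 and 7.54 FPKM, with no overlap and a limma adjusted p of 0.295 (0.0909 without shSCR replicate 3). VHL, the ligase subunit that binds hydroxylated HIF1A, was at 6.14, 6.49 and 37.5 FPKM in shSCR and at 7.62, 6.28 and 29.5 FPKM in shPCAT1: 1 sample of each group was several-fold above the rest, and the groups could not be separated (adjusted p = 0.986).

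**Figure D4:**
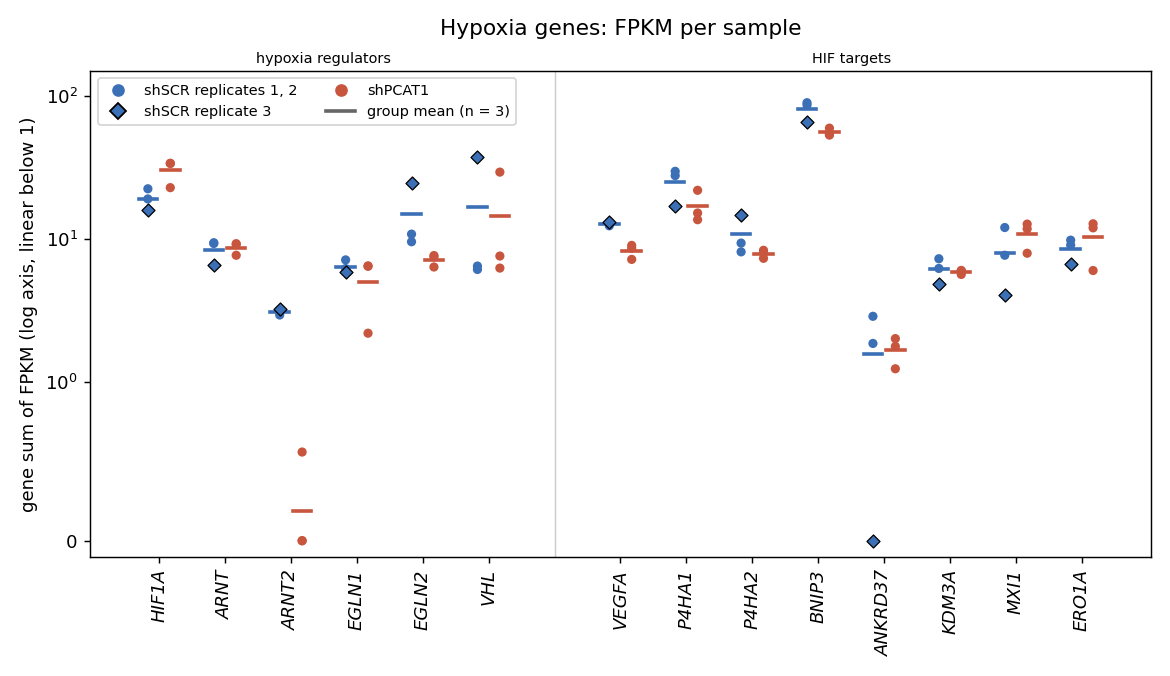
FPKM of the 14 measured hypoxia genes in each sample (log axis, linear below 1), with shSCR in blue, its replicate 3 as outlined diamonds, shPCAT1 in red and bars for the group means (n = 3); the 2 shPCAT1 samples of ARNT2 listed at 0 overlie each other. ARNT2, VEGFA and BNIP3 are lower in every shPCAT1 sample, HIF1A is higher, and VHL has 1 high sample in each group.

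Of the 8 measured HIF targets 0 were called by limma with all samples (2 at an unadjusted p of at most 0.05, both lower, and 0 by an ordinary equal-variance test). VEGFA, the main angiogenic growth factor, at chr6:43738519-43754224, was at 12.8, 12.4 and 13.3 FPKM in shSCR and at 7.22, 9.05 and 8.64 FPKM in shPCAT1. BNIP3, a mitochondrial receptor for mitophagy, on the minus strand at chr10:133779959-133795517, was at 90.3, 87.0 and 66.5 FPKM against 59.9, 54.4 and 53.5 FPKM. Both genes were lower in every shPCAT1 sample, VEGFA with a tight shSCR group and BNIP3 with shSCR replicate 3 as the lowest of its group. For VEGFA the log2 change was -0.58 (SE 0.15, limma adjusted p = 0.156), or -0.55 (SE 0.12, adjusted p = 0.0638) without that library. For BNIP3 it was -0.52 (SE 0.17, adjusted p = 0.214), or -0.66 (SE 0.07, adjusted p = 0.0228) without it. BNIP3 has a GC content of 43.2%, below the median of all genes (48.7%), and with the GC correction its change was -0.66 (adjusted p = 0.0552), or -0.72 (adjusted p = 0.0205) without shSCR replicate 3. The highest transcript, BNIP3-001, was at 81.0, 79.3 and 65.3 against 45.2, 47.6 and 47.0 FPKM. The 9 VEGFA transcripts were each low, the highest 2 (VEGFA-019 and VEGFA-002) at 1.57 to 3.48 against 1.01 to 1.71 FPKM and at 1.46 to 3.37 against 0.983 to 1.69 FPKM.

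With all samples the remaining HIF targets split in direction and overlapped between the groups. The collagen prolyl hydroxylase subunit P4HA1 was at 29.9, 27.9 and 17.1 FPKM in shSCR and at 13.7, 22.0 and 15.2 FPKM in shPCAT1 (log2 change -0.52, limma adjusted p = 0.392), and its paralog P4HA2 at 8.15 to 14.8 against 7.35 to 8.36 FPKM. The histone demethylase gene KDM3A was nearly level (4.87 to 7.30 against 5.66 to 6.04 FPKM). MXI1, an antagonist of MYC, was at 4.06 to 12.1 against 7.97 to 12.8 FPKM, the oxidoreductase gene ERO1A at 6.72 to 9.85 against 6.03 to 12.8 FPKM, and ANKRD37, the lowest of the set, at 1.86, 2.88 and a listed 0 against 1.24 to 2.01 FPKM. For these 3 genes the fitted change was above 0, and shSCR replicate 3 was the lowest shSCR sample of each. Without it, the change of ANKRD37 was -0.33 and those of MXI1 and ERO1A were 0.13 and 0.05. The groups of P4HA1 and KDM3A did not overlap without that library, both lower in shPCAT1 (-0.76 and -0.17, adjusted p = 0.114 and 0.352 in limma). The change of P4HA1 was -0.77 with the GC correction (adjusted p = 0.158) and -0.87 with the correction and without that library (adjusted p = 0.102). In the latter setting 7 of the 8 measured HIF targets were below 0.

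Further genes of the hypoxia response, again from lists chosen by function, behaved as follows. Of 31 other HIF targets 1 was called, lower, where 0.878% of all genes were called. DDIT4, an inhibitor of mTORC1 signalling that is also induced by other stresses, was at 135, 120 and 141 FPKM in shSCR and at 55.5, 59.9 and 52.2 FPKM in shPCAT1 (log2 change -1.23, SE 0.14, limma adjusted p = 0.0303). The call of DDIT4 was lost with the GC correction (-0.90, adjusted p = 0.0648 in limma) but not with it and without shSCR replicate 3 (-1.04, adjusted p = 0.0197). Without that library 3 of the 31 were called, all lower (DDIT4, NDRG1 and HMOX1), where 8.03% of all genes were called and 4.4% lower. For HMOX1, the haem oxygenase gene that is also induced by oxidative stress, the change was then -1.14 (adjusted p = 0.0261 in limma, against -0.92 and 0.156 with all samples). NDRG1, an androgen-responsive gene as well as a HIF target, was at 37.5, 32.2 and 23.1 against 12.1, 15.8 and 12.3 FPKM (-1.13, adjusted p = 0.0974, or 0.0235 without shSCR replicate 3). Over the 31 genes the median change was -0.18, with 18 below 0 and 13 above, or -0.12, with 20 and 11, without that library. Of 18 other regulators 0 were called (3 at an unadjusted p of at most 0.05, 0 by the ordinary test), and the median change was 0.06, with 7 below 0. Without shSCR replicate 3 the median was -0.12, with 14 of the 18 below 0. In that setting 2 of the 18 were called, HSP90AA1 higher and CITED2 lower, beside the same 8.03% of all genes. HSP90AA1, the chaperone that holds HIF1A among many clients, was at 400, 445 and 479 against 588, 581 and 553 FPKM (0.38, adjusted p = 0.192, or 0.44 and 0.0353 without that library). CITED2, which competes with HIF1A for its coactivator, was at 28.6, 31.3 and 22.3 against 17.3, 18.6 and 19.6 FPKM (-0.53, adjusted p = 0.221, or -0.67 and 0.0284 without that library).

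HIF binds DNA at the short cores ACGTG and GCGTG. Of the 43 genes 39 had a RefSeq promoter of 300 bases (250 before to 50 after a start, GRCh38.p14), 67 promoters in all. ACGTG stood in 27 of the 67 promoters on either strand (40.3%), against 21.4% of all 35116 promoters of the reference set. GCGTG stood in 28 (41.8%), against 36.5%. These shares are a description only: the promoters were not matched for GC content, and some promoters of the same gene overlap. The set was also chosen to include HIF targets. The promoters of ALDOC and BNIP3, the enzyme and the HIF target that were called lower without shSCR replicate 3 but not with all samples weighted equally, and that kept the former call with the GC correction, are shown as examples. Capitals mark the cores on either strand (ACGTG reads CACGT and GCGTG reads CACGC on the other strand), and a CACGTG holds ACGTG on both strands.
ALDOC promoter, chr17:28576846-28577145, minus strand: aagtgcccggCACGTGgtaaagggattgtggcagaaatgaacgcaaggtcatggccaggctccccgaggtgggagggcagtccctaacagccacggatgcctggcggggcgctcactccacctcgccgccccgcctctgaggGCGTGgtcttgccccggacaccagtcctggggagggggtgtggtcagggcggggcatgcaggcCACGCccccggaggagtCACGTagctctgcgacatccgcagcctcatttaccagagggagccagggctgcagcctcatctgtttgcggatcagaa
BNIP3 promoter, chr10:131981874-131982173, minus strand: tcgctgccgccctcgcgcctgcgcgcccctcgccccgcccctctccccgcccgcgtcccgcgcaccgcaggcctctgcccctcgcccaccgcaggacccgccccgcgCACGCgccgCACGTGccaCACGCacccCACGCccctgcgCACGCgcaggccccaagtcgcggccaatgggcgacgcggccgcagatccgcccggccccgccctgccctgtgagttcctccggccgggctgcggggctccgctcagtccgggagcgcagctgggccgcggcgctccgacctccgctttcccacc
The ALDOC promoter holds 3 ACGTG and 2 GCGTG, and that of BNIP3 holds 2 and 4. Genes that were not called can hold more: an LDHA promoter holds 5 ACGTG and an HK2 promoter 4. The promoters of TALDO1 and TKT, both lower in every shPCAT1 sample, hold 0 of either core. Whether cores and changes go together was not tested. A match to these letters is no evidence of binding, and HIF binding was not measured.

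The differences between the groups followed GC content across all genes (Spearman rho = -0.539 with all samples and -0.256 without shSCR replicate 3, across 10748 genes that are not independent). The enzyme genes, with a median GC content of 54.0%, lay above the median of all genes (48.7%), where changes were mostly below 0, and the hypoxia genes (46.3%) lay below it. After the GC correction 17 of the 28 enzyme changes were below 0 and 11 above, where 24 and 4 had been without it, and their median was -0.13, beside 0.0007 over all genes. Without shSCR replicate 3, the corrected median was -0.11 over the enzyme genes and -0.26 over the hypoxia genes, with 17 of 28 and 11 of 14 below 0. Under that correction and without that library, 4 of the 42 genes were called, all lower (ALDOA, ALDOC, ARNT2 and BNIP3), where 6.35% of all genes were called and 3.29% were called lower. With upper quartile scaling or quantile normalization, 7 of the 14 hypoxia changes were below 0, where 9 had been as deposited. With sample weights estimated by limma, which gave shSCR replicate 3 little weight, 7 were called, all lower. In that setting 11.4% of all genes were called (1233 of 10825), 677 of them lower.

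**Figure D5:**
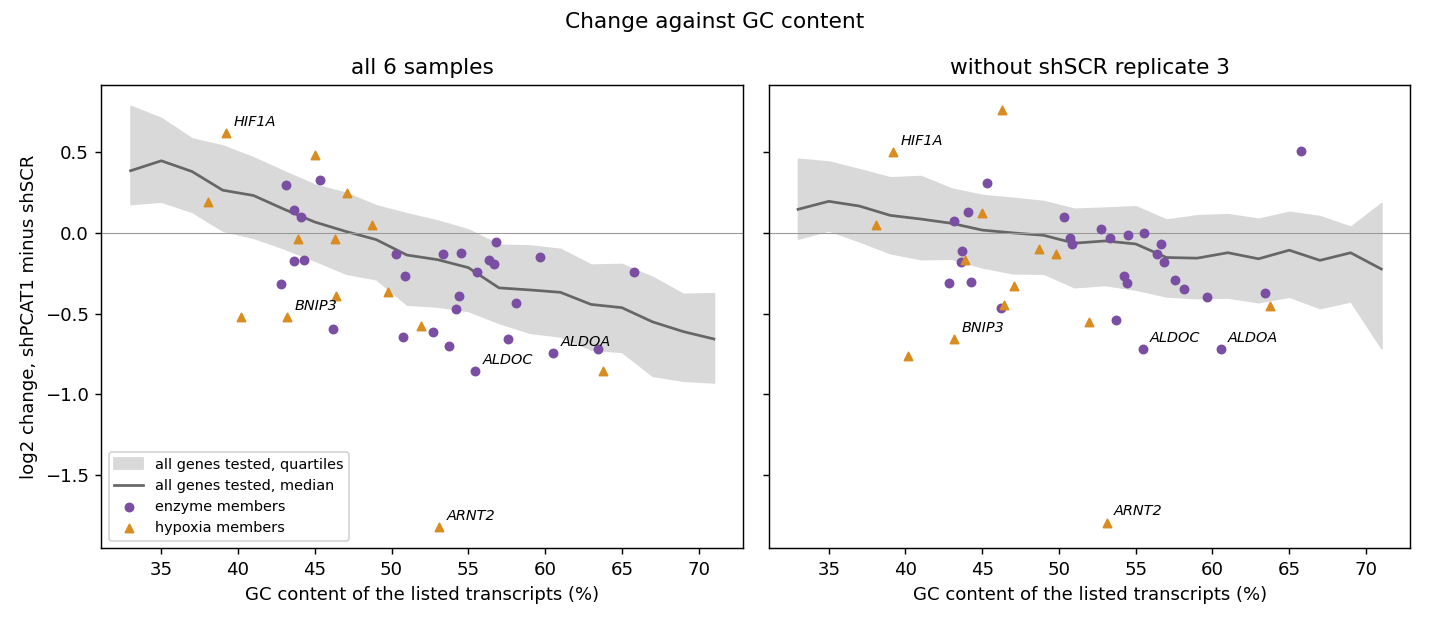
Log2 change of each gene (y axis, shPCAT1 minus shSCR) against the GC content of its listed transcripts (x axis, %), with enzyme genes as purple circles, hypoxia genes as orange triangles and the median and quartiles of all genes tested in grey, with all 6 samples (left) and without shSCR replicate 3 (right). The grey trend falls steeply on the left and less on the right, and ALDOA, ALDOC, BNIP3 and ARNT2 lie below it in both panels.

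The remaining ratios of paralogs within a sample, which no library scaling can alter, did not separate the groups. They were not corrected for GC content, which was 46.4% for EGLN1 and 63.8% for EGLN2. For PFKFB2 and PFKFB4 it was 43.6% and 56.4%. The ratio of HK2 to HK1 was 0.310 ± 0.0384 in shSCR and 0.395 ± 0.0589 in shPCAT1 (exact permutation p = 0.2, two-sided, n = 3 each). That of ENO2 to ENO1 was 0.0429 ± 0.00258 against 0.0361 ± 0.00961 (exact p = 0.4), that of PFKFB4 to PFKFB2 1.23 ± 0.714 against 0.870 ± 0.183 (exact p = 0.7) and that of EGLN1 to EGLN2 0.515 ± 0.241 against 0.683 ± 0.294 (exact p = 0.5). The shSCR means of the last 2 rested on replicate 3, where PFKFB4 to PFKFB2 was 2.06 against 0.853 and 0.788 in the others and EGLN1 to EGLN2 was 0.237 against 0.660 and 0.649. Without it the difference in PFKFB4 to PFKFB2 turned from -0.362 to 0.0499, and that in EGLN1 to EGLN2 went from 0.167 to 0.0281. After adjustment over the 8 ratios the smallest p was 0.533.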

How the data were processed

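RNA was enriched for poly(A) tails and sequenced from stranded libraries, and the authors computed FPKM per transcript with Ballgown. The submitters' processing notes name HISAT2 2.0.4 with hg19, while a different aligner, with Ensembl GRCh37 models, is given in the methods. The deposited table also holds group means of log2(FPKM + 1), the log2 and linear fold ratio between them, and p-values with q-values. These columns of the authors' own comparison were not used. Every listed transcript is protein coding and reaches a mean of 0.5 FPKM in 1 group or the other. Read counts were not used, so the depth stays unknown and counting intervals were not computed.

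FPKM were summed per gene name, genes averaging at least 1 FPKM across the 6 samples were kept, and log2(FPKM + 1) was fitted with limma 3.58.1 in R 4.3.3 (trend and robust), without covariates; this scale understates the change of low genes. DEGseq, which the study applied to FPKM, was not used here because it models counts. The GC correction removed a lowess curve (span 0.3) of each sample's deviation from the gene mean against GC content, which came from the GRCh37 reference transcripts (99.1% of genes matched). Locations are those of the highest transcript (hg19), PKM exons were read from GRCh37, and promoters are from RefSeq.

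The genes and lists were chosen with earlier results of these data known. Every gene of the set was to be named, with values in all samples for those called with or without shSCR replicate 3 and for the 2 with the smallest p of each role, and of the other lists those called and the 2 with the smallest p. A gene that this rule names is not reported here. Alternatives tried were another pseudocount (0.1), a filter at 5 FPKM or none, upper quartile and quantile scaling, a block by replicate number, an untrended and non-robust limma fit, an ordinary equal-variance test, sample weights, the GC correction with and without shSCR replicate 3, and each sample left out.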

Additional observations from a re-analysis of the deposited data

How the results depend on the processing

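Over all genes, 95 were called with all samples, against 56 with a pseudocount of 0.1, 53 with a filter at 5 FPKM, 200 by the ordinary test, 1233 with sample weights, 682 with the GC correction without shSCR replicate 3, and 4 to 869 with 1 sample left out, the highest being without shSCR replicate 3. The number of enzyme genes called, 1 (ALDOA), became 0 with a pseudocount of 0.1 (adjusted p = 0.0538 in limma), upper quartile scaling (0.0964), quantile normalization (0.0577), no trend or robust fit (0.0779) and the GC correction (0.424), 4 with sample weights, 2 with the GC correction without shSCR replicate 3, and 0 to 3 with 1 sample left out. The number of hypoxia genes called, 1 (ARNT2), became 0 with a pseudocount of 0.1, a filter at 5 FPKM, which removes ARNT2, and the ordinary test (adjusted p = 0.0532), 3 with sample weights, 2 with the GC correction without shSCR replicate 3, and 0 to 2 with 1 sample left out. ALDOA and ARNT2 each lost their call when any sample other than shSCR replicate 3 was left out. The cause was not tested. The median change of the hypoxia genes, -0.20, ran from -0.418 to -0.0166 with 1 sample left out, the end nearest 0 being without shPCAT1 replicate 1, and that of the enzyme genes, -0.24, from -0.381 to -0.152. ALDOA, ALDOC, PGK1, ENO2, PDK3, PDHA1, TALDO1, TKT, HIF1A, ARNT2, VEGFA and BNIP3 kept their direction under every alternative that tested them. Of the 42 genes, 7 turned without shSCR replicate 3, 10 with the GC correction and 13 with both, of which 0 were called in either fit compared, and 0 member transcripts were called under any alternative run on transcripts.

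No pairing of the samples by replicate number was seen: deviations from the group means correlated with r = -0.0238, -0.0142 and 0.0209 for numbers 1, 2 and 3. The shSCR mean includes replicate 3, which stood apart, so this check could miss a pairing. With the number as a block, 2 of all genes, 0 enzyme genes and 0 hypoxia genes were called. Depth is unknown, so its limit on low genes such as ARNT2 and ANKRD37 could not be given.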

Other observations

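Some genes of the same pathways lay below the filter of 1 FPKM and were therefore not tested. They were picked after their values were seen, and since the table lists a transcript only where 1 group reaches 0.5 FPKM, a gene this low tends to be listed because the groups differ. SLC16A3, which exports lactate and is a HIF target, was at 1.80, 1.20 and 2.77 FPKM in shSCR and at 0.157, 0 and 0.0136 FPKM in shPCAT1. The HIF target CA9, a carbonic anhydrase of the cell surface, was at 0.984, 0.662 and 1.09 against 0.20, 0.0928 and 0.0912 FPKM. LOX, which crosslinks collagen, was at 0.784, 0.720 and 0.685 against 0.0944, 0.134 and 0.0463 FPKM. In each of the 3 genes every shPCAT1 sample was below every shSCR sample, at levels where FPKM are least precise.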
